A study of Drosophila melanogaster with 6 samples.

Results

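Polycomb group proteins keep developmental genes silent, and the transcripts of the genes that encode their main complexes were followed in Drosophila germline stem cells and in Kc cells. The group was defined as 10 genes: Psc, Su(z)2, Pc, ph-p and Sce of Polycomb repressive complex 1 (PRC1), E(z), esc and Su(z)12 of Polycomb repressive complex 2 (PRC2), Asx of the Polycomb repressive deubiquitinase (PR-DUB), and pho of the Pho repressive complex (PhoRC). Members were taken by gene symbol from the platform annotation, keeping every probe set annotated to that 1 gene. This gave 7 genes with 1 probe set each, out of 10844 genes and 13966 probe sets on the array, namely Psc, Pc, Sce, E(z), esc, Su(z)12 and Asx. Su(z)2, ph-p and pho were not analysed here. The germline stem cells (GSC, 3 arrays) were purified from ovaries of females mutant for bam, a gene that germ cells need in order to differentiate, so that undifferentiated cells accumulate. The bam allele and the age of the flies are not stated. Kc (3 arrays) is an established line of cultured Drosophila cells of embryonic origin and is the baseline, so higher and lower mean GSC relative to Kc. The design also lists GSC from ovaries overexpressing the niche signal Dpp, and these were not analysed here. The labels do not say whether the arrays of a group stand for separate dissections or cultures, so the p-values cover the spread among these arrays alone, and that spread may be technical.

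PRC2 places methyl groups on histone H3, and PRC1 contains a subunit that reads this mark and another that attaches ubiquitin to histone H2A. PR-DUB removes ubiquitin from H2A, and PhoRC binds DNA at Polycomb response elements, the sequences to which the complexes are recruited. The system is best known for holding homeotic genes silent outside their proper body segments, and in the fly ovary PRC2 is known to act in the germline as well.

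The arrays gave the profile that their labels name. The GSC arrays also had more yolk and eggshell signal and higher 3' to 5' ratios of control transcripts. All 8 germ cell markers were higher on every GSC array, 7 of them called, and their summed signal was 34786 to 39215 on GSC arrays and 844.1 to 1050.0 on Kc arrays, led in GSC by nos and vas. All 6 hemocyte markers, which Kc cells are known to express, fell in GSC, with sums of 262.5 to 383.9 on GSC arrays and 25085 to 26330.3 on Kc arrays. Of 9 measured markers of ovarian somatic cells, 0 were called higher by limma (0 also at an unadjusted p under 0.05) and 1, zfh1, fell. Their sum was 671.4 to 792.7 on GSC arrays, mostly zfh1 and shg, and 3370.4 to 3893.7 on Kc arrays, mostly zfh1 (mean 3082.5). The difference between the sums thus rests mainly on zfh1. For shg every GSC array was above every Kc array, but it did not pass the p threshold (limma adjusted p = 0.513). All signals of tj, hh, en, ptc and upd1 lay below 121.3, the highest signal of control probe sets for mouse and yeast transcripts. The GSC signals of slbo and br did so too. For these dim markers the lack of a call could not be judged. Of 8 yolk and eggshell genes of later egg chambers, 7 rose in GSC, with sums of 4620.7 to 5107.3 on GSC arrays and 1033.3 to 1369.7 on Kc arrays. The listed ovarian somatic markers wg, Fas3 and Wnt4 were not measured. For the actin control transcript, the 3' probe set divided by the 5' one gave 4.22 to 4.77 on GSC arrays and 1.76 to 1.90 on Kc arrays (two-sided p = 0.1 by an exact permutation test, where 3 arrays against 3 cannot go lower). The ratios for GAPDH and eIF-4a were likewise above all Kc values on all GSC arrays. The sources of the yolk and eggshell signal and of the 3' to 5' difference, and their part in the results below, were not tested. In bulk RNA, fewer cells of a type and less RNA per cell cannot be told apart.

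Of the 7 measured members, 3 rose in GSC, 0 fell and 4 were not called. A call required an adjusted p under 0.05 (limma, Benjamini-Hochberg over all 13966 probe sets) together with a fold of at least 2. Among all probe sets, 11.7% were called higher in GSC by the same rule and 8.11% lower, 19.8% in all. With dim probe sets (mean signal under 38) left out, 14.8% of the remaining 11127 were called higher. The 3 that rose came from 3 complexes, Psc of PRC1, E(z) of PRC2 and Asx of PR-DUB. Another 2, Sce and esc, passed the p threshold but stayed below the fold minimum, so that 5 of 7 were higher without that minimum, against 20.1% of all probe sets. These same 5 had every GSC array above every Kc array, which was the case for 25.7% of all probe sets, while 19.7% had every GSC array below every Kc array. No member was lower at an unadjusted p under 0.05 (0 of 7), against 17.9% of all probe sets. Fold changes were computed on log2(signal + 38), a pseudocount equal to the 25th percentile of the deposited signals, and so understate the change of dim probe sets.

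**Figure D1:**
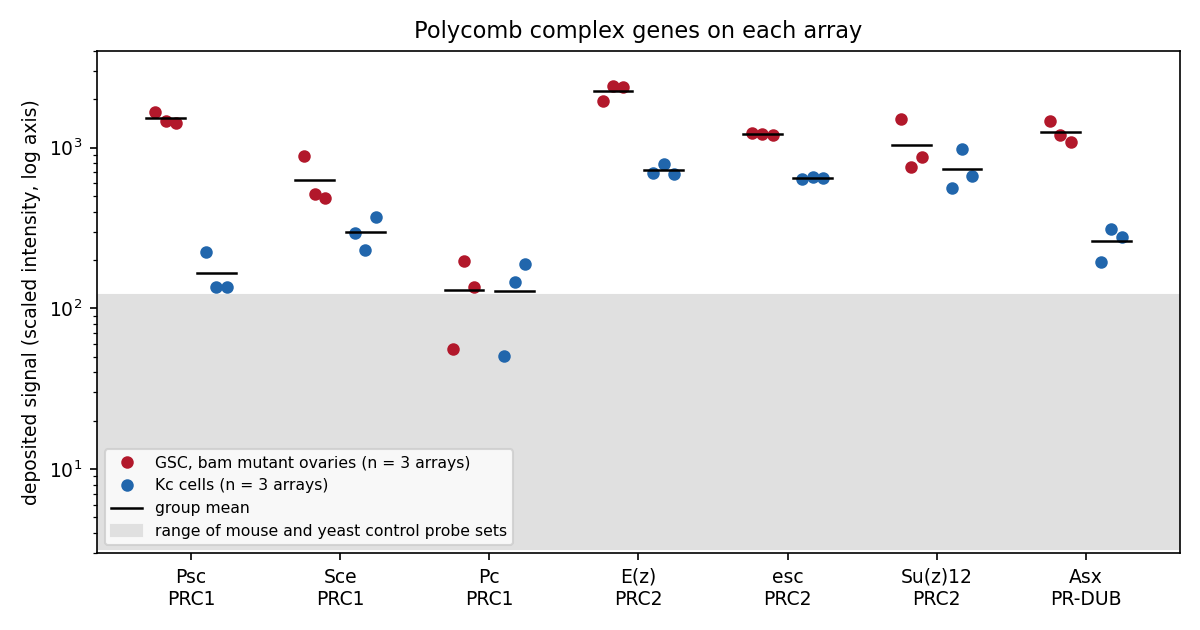
Deposited signal (scaled intensity, log axis) of the 7 measured Polycomb complex genes on each of the 3 GSC and 3 Kc arrays, with group means as bars and the range of the mouse and yeast control probe sets shaded. The GSC points of Psc, Sce, E(z), esc and Asx lie above all Kc points of the same gene, while those of Pc and Su(z)12 overlap with Kc.

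Within PRC1, Psc showed the largest difference of all 7 members. Psc encodes a RING finger protein that PRC1 needs to compact chromatin. Its signals were 1665.9, 1463.9 and 1428.8 on GSC 1 to 3, against 223.7, 135.2 and 136.1 on Kc 1 to 3. Every GSC array was far above every Kc array, and the lowest GSC signal was 6.39 times the highest Kc signal. The log2 fold was 2.97 ± 0.189 (SE, n = 3 each, adjusted p = 2.2e-06), and only 0.773% of all probe sets had a larger one. The GSC signals spread little, with a coefficient of variation of 8.42%, and the Kc signals more, with 30.8%. On the Kc arrays Psc was only moderately above the highest signal of 8 control probe sets for mouse and yeast transcripts, which flies lack. These controls ranged from 4.9 to 76.6 on GSC arrays and from 3.2 to 121.3 on Kc arrays.

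Sce, the ubiquitin ligase subunit of PRC1 (also called dRing), differed less and varied more. It had 891.9, 516.7 and 486.1 on GSC arrays and 296.2, 230.3 and 371.4 on Kc arrays. The groups did not overlap, but GSC 1 stood well above the other GSC arrays, which were 1.31 times the highest Kc array at their lowest. The log2 fold of 0.96 ± 0.25 (SE, adjusted p = 0.0137) was just under the fold minimum. It was 0.70 without GSC 1, and the p threshold was missed without Kc 2 (0.81, adjusted p = 0.0518). It passed both thresholds without GSC 2, GSC 3 or Kc 3, at 1.07 to 1.11.

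Pc, whose chromodomain binds the methyl mark that PRC2 places, could not be told apart between the groups. Its signals were 56, 196 and 135.6 on GSC arrays and 50.4, 146.7 and 188.2 on Kc arrays. Both groups covered nearly the same range, and their lowest arrays, GSC 1 and Kc 1, lay within the range of the mouse and yeast controls. The log2 fold was 0.02 with a 95% interval of -0.98 to 1.01 (adjusted p = 0.985), so a difference of up to about the fold minimum in either direction was not detectable at this precision. The sign of this value turned when any of GSC 2, GSC 3 or Kc 1 was left out, and with 2 of the scalings.

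Among the 3 measured PRC2 members, 1 was called higher, the catalytic subunit gene, against 11.7% of all probe sets. E(z), the methyltransferase itself, had 1935.1, 2423.1 and 2369.8 on GSC arrays against 698.2, 785.9 and 684.3 on Kc arrays. The groups were well apart, with the lowest GSC signal 2.46 times the highest Kc signal. The log2 fold was 1.58 ± 0.129 (adjusted p = 1.03e-05), and 5.03% of all probe sets had a larger one. E(z) and Psc were both called, with 95% intervals of their log2 folds of 1.29 to 1.87 for E(z) and 2.54 to 3.39 for Psc.

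esc encodes the WD-repeat subunit of PRC2 that binds methylated histone H3 and stimulates E(z). It was the most even of the members, with 1234.1, 1214 and 1189.3 on GSC arrays and 633.1, 653.6 and 650.8 on Kc arrays. The coefficients of variation were 1.85% in GSC and 1.72% in Kc, and the groups did not overlap. The signal ratio of GSC over Kc was 1.88, and the log2 fold of 0.87 ± 0.114 passed the p threshold (adjusted p = 0.000213) but not the fold minimum.

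Su(z)12, a zinc finger subunit needed for the assembly and activity of PRC2, was not separated between the groups. It had 1505.4, 754.4 and 872.7 on GSC arrays and 562, 977.4 and 661.4 on Kc arrays. The groups overlapped, with Kc 2 above GSC 2 and GSC 3, and the high GSC mean rested on GSC 1. The log2 fold was 0.46 ± 0.267 (95% interval -0.14 to 1.06, adjusted p = 0.234), and it was 0.17 without GSC 1. The 3 measured PRC2 members thus spanned log2 folds of 0.46 to 1.58.

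Both measured genes of PR-DUB were called higher, against 11.7% of all probe sets. Asx, the subunit that activates the deubiquitinase, had 1456.7, 1202.8 and 1075.8 on GSC arrays against 195.3, 311.5 and 277.2 on Kc arrays. The lowest GSC signal was 3.45 times the highest Kc signal. Its log2 fold was 2.11 ± 0.189 (adjusted p = 1.91e-05), and 2.42% of all probe sets had a larger one. The catalytic subunit gene calypso, which is not one of the 10 genes, averaged 570.6 ± 47.9 on GSC arrays and 248.3 ± 32.7 on Kc arrays (mean ± SD). Its log2 fold was 1.09 ± 0.166 (adjusted p = 0.000561), close to the fold minimum, and it fell below that minimum with quantile normalization (0.93), scaling to the median (0.98) and the pseudocount at the median (0.84).

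Set side by side over the 7 measured members alone, PRC1, PRC2 and PR-DUB held 1 called gene each, and the values spread widely within PRC1 and PRC2. PRC1 had 1 of 3 measured members called, with a median log2 fold of 0.96 and a range of 0.02 to 2.97. PRC2 had 1 of 3 called, with a median of 0.87. The single PR-DUB member had 2.11. Of all probe sets, 11.7% were called higher. The median over all 7 was 0.96, and it was 0.03 over all probe sets. The range within PRC1 covers the values of PRC2 and of Asx, but its low end of 0.02 is Pc alone. The lowest GSC and Kc signals of Pc lay within the range of the mouse and yeast controls. Without Pc, the PRC1 values of 0.96 (Sce) and 2.97 (Psc) enclose E(z) (1.58) and Asx (2.11). They do not enclose esc (0.87) or Su(z)12 (0.46). With this few genes in each complex no difference between complexes was tested. GSC 1 had the highest of the GSC signals for 5 of the 7 members, against 40.9% of all probe sets.

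**Figure D2:**
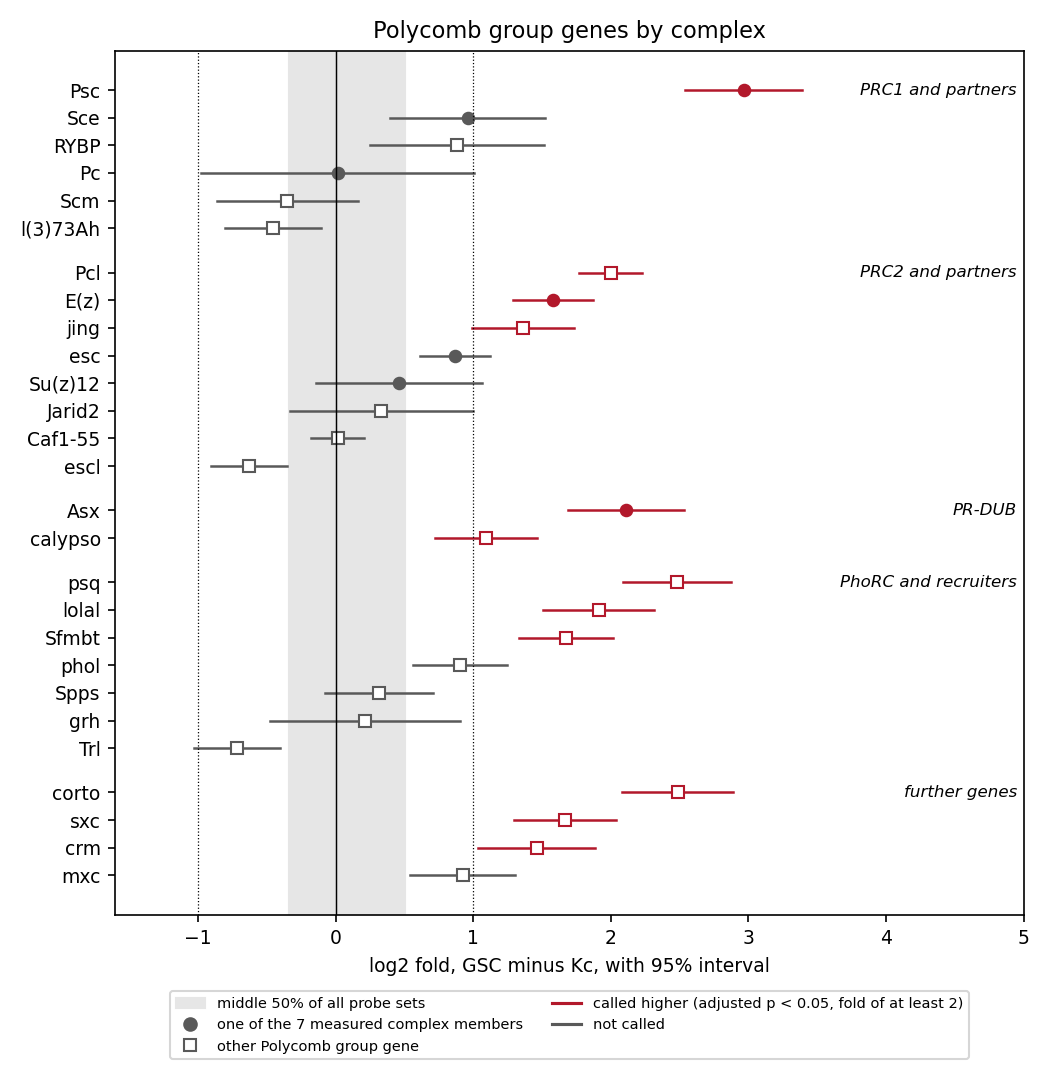
Log2 folds (GSC minus Kc, horizontal axis) with 95% intervals for the 7 measured members (filled circles) and 20 other Polycomb group genes (open squares), ordered by complex, with called genes in red and the middle 50% of all probe sets shaded. Psc, E(z), Asx and 9 other genes are called higher, and no gene lies below the fold minimum of -1.

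The global scaling of the arrays sets part of these values. Bacterial hybridisation controls, which are usually added in equal amounts, had geometric mean signals of 2113.5 to 3752.7 on GSC arrays and 3635.9 to 4301.7 on Kc arrays. Scaling to them placed the median of all log2 folds at 0.32, against 0.03 as deposited, and the share of higher among called probe sets to 80.4%, against 59.1%. On that scale Sce (log2 fold 1.38) and esc (1.30) were called as well, for 5 members in all. Of all probe sets, 20.1% were called higher on that scale, against 11.7% as deposited. Relative to the median of all probe sets on the same scale, Psc was at 3.05, Asx at 2.21, E(z) at 1.70, Sce at 1.06, esc at 0.99, Su(z)12 at 0.58 and Pc at the median itself. Because of the pseudocount, such a scaling shifts the log2 folds of dim probe sets less. The log2 fold of Pc went from 0.02 to 0.32 and that of E(z) from 1.58 to 2.02. The calls changed with the scale, while the order of the measured members stayed the same.

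**Figure D3:**
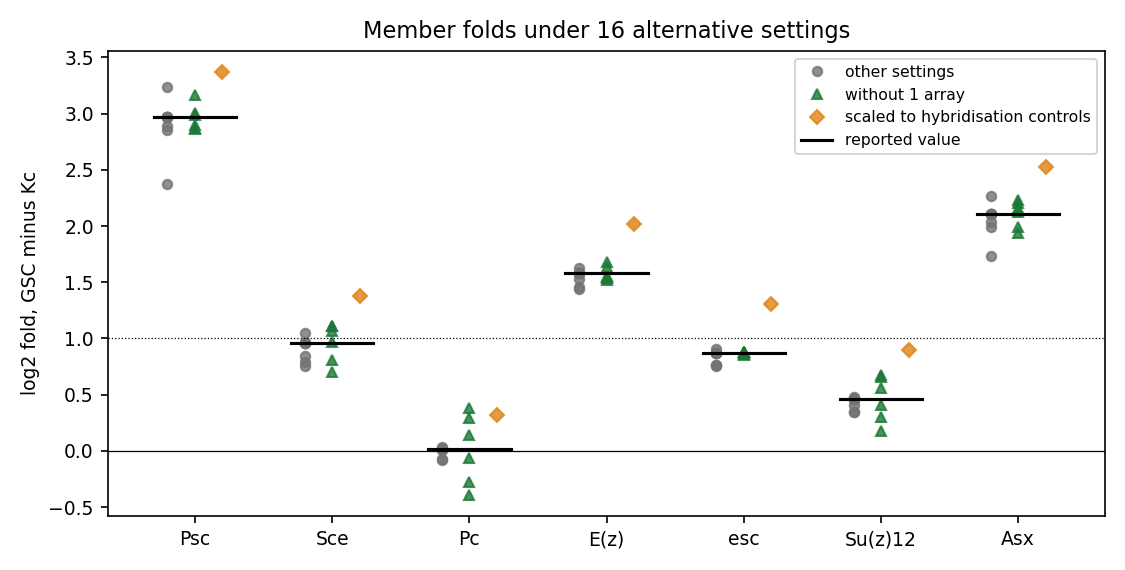
Log2 fold (GSC minus Kc) of each measured member as reported (black bars), without 1 array (triangles), scaled to the hybridisation controls (diamonds) and under the other settings (grey circles), with the fold minimum dotted. Psc, E(z) and Asx stay above a log2 fold of 1 under all 16 alternatives, Sce and esc cross it, and Pc falls on both sides of 0.

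The paralogs of the members could be compared in 1 of 4 pairs, esc with escl. escl encodes a protein that can take the place of esc in PRC2. Its signals were 1125.7, 1193.1 and 1085.9 on GSC arrays and 1571.4, 1763.8 and 2018.2 on Kc arrays, so that all GSC arrays were below all Kc arrays, the opposite of esc. The log2 fold of escl was -0.63 ± 0.124 (adjusted p = 0.0028), past the p threshold and below the fold minimum. With scaling to the hybridisation controls it was -0.19 (adjusted p = 0.69). Within each array, log2 esc minus log2 escl was 0.13, 0.02 and 0.13 on GSC arrays and -1.26, -1.38 and -1.58 on Kc arrays. The groups differed by 1.5 on the log2 scale, a difference from which the scale of each array cancels apart from the pseudocount, and all 3 GSC arrays were above all 3 Kc arrays (two-sided p = 0.1 by an exact permutation test, again the lowest value possible, and the same after adjustment since 1 pair was tested). How far the probe sets tell these related genes apart was not tested.

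**Figure D4:**
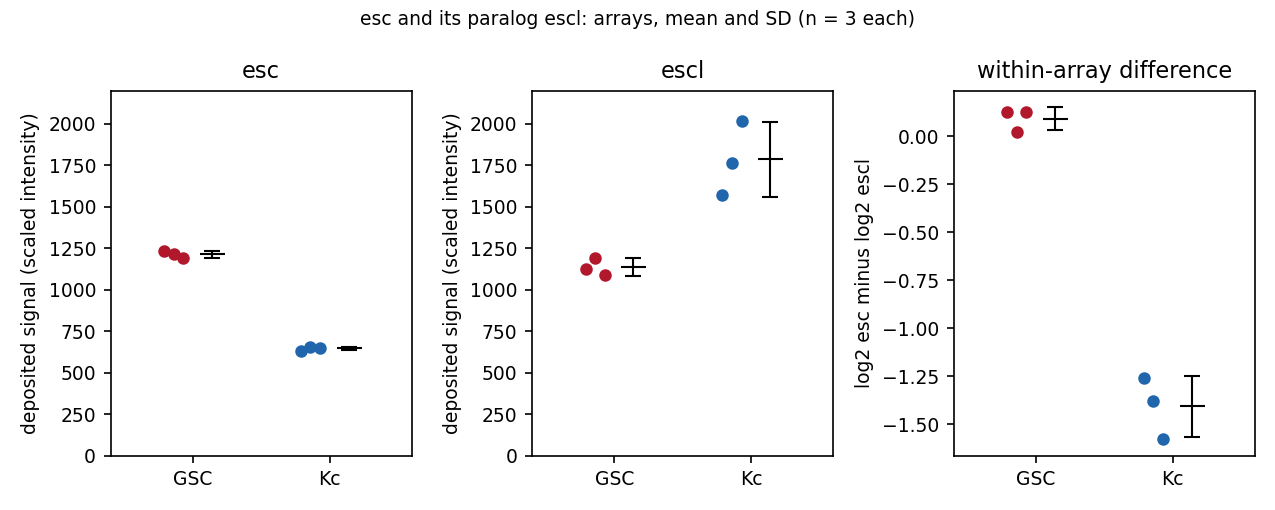
Deposited signals of esc and escl and their within-array log2 difference on 3 GSC and 3 Kc arrays, with mean and SD beside the points. esc is higher and escl lower on all GSC arrays, and the within-array difference is 0.09 ± 0.06 in GSC and -1.41 ± 0.16 in Kc.

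Beyond the members, 20 of 25 other Polycomb group genes and partners were measured. Of these, 9 rose, against 11.7% of all probe sets called higher, 0 fell by limma, against 8.11%, and 11 were not called. At an unadjusted p under 0.05, 3 were lower, against 17.9% of all probe sets. The median log2 fold of the 20 genes was 0.92. The 2 largest log2 folds, which differed by less than their errors, were those of corto and psq. corto is a chromodomain protein gene that interacts with both Polycomb and Trithorax proteins, with 842.1, 885.4 and 951.9 on GSC arrays against 163.4, 108.7 and 117.2 on Kc arrays (log2 fold 2.49, adjusted p = 4.65e-06). psq, which encodes a DNA-binding protein of Polycomb response elements, had 1664.2, 1212.1 and 1249.7 against 248.9, 216.1 and 178.7 on Kc arrays (2.48, adjusted p = 4.48e-06). The groups of both genes were far apart. Of 3 measured partners of PRC1, 0 were called in either direction. Their log2 folds were 0.88 for RYBP, -0.35 for Scm and -0.45 for l(3)73Ah. RYBP and Scm were named after their values were seen.

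Partners of PRC2 differed among themselves. Pcl, an accessory subunit that raises PRC2 activity, had 3832.2, 3966.5 and 4327.9 on GSC arrays against 949.1, 1013.1 and 985.9 on Kc arrays, with a log2 fold of 2.00 ± 0.102 (adjusted p = 5e-07). Caf1-55, the histone-binding subunit that PRC2 shares with other chromatin complexes, averaged 5390.7 ± 145.8 on GSC arrays and 5332.7 ± 143.4 on Kc arrays (mean ± SD). Its log2 fold was 0.02, with a 95% interval of -0.18 to 0.21 (adjusted p = 0.924). It was 0.46 with scaling to the hybridisation controls, -0.11 with scaling to the median and 0.29 with quantile normalization (adjusted p = 0.0207), so its direction depended on the scaling. A zinc finger partner of PRC2, jing, rose (log2 fold 1.36), while its second and dimmer probe set did not pass (0.36, adjusted p = 0.501).

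Among genes of PhoRC and of recruitment, 3 of 7 measured rose, against 11.7% of all probe sets, and 0 fell, against 8.11%. The other 4 were not called, and 1 of them, Trl, had every GSC array below every Kc array. Sfmbt, the partner of pho in PhoRC, had 1874.7, 2144.7 and 1827.9 on GSC arrays against 554.7, 720.3 and 494.3 on Kc arrays (log2 fold 1.68, adjusted p = 2.19e-05). lolal, a BTB domain protein gene, had a log2 fold of 1.91 (adjusted p = 2.56e-05). phol, the paralog of pho, had 0.91 ± 0.152 (adjusted p = 0.00107), below the fold minimum, with all GSC arrays above all Kc arrays. sxc, which encodes the enzyme that adds the sugar N-acetylglucosamine to Polycomb proteins, had 1.67, and crm had 1.46. jing, sxc and crm were named after their values were seen.

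The 3 genes that were lower at an unadjusted p were escl, Trl and l(3)73Ah, the last 2 also named after their values were seen. Trl encodes GAGA factor, a DNA-binding protein, and averaged 758.3 ± 58.4 on GSC arrays against 1275.0 ± 184 on Kc arrays (mean ± SD, log2 fold -0.71, adjusted p = 0.00283). l(3)73Ah encodes a RING finger relative of Psc and had a log2 fold of -0.45 (adjusted p = 0.0472). With scaling to the hybridisation controls Trl was at -0.28 (adjusted p = 0.546) and l(3)73Ah at -0.03 (adjusted p = 0.957). The p threshold was missed by l(3)73Ah in 8 of 16 alternatives, among them the replicate block (adjusted p = 0.0717) and leaving out any array but Kc 1 (adjusted p = 0.0949 to 0.149). By contrast, corto, psq, Pcl, lolal and Sfmbt were called higher under all 16 alternatives.

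Of the measured classic targets of the complexes, Dfd alone had signals above the highest mouse or yeast control of all arrays, 121.3, and only on Kc arrays. Of 10 homeotic and segment polarity genes, 6 were measured. By limma 0 rose (0 also at an unadjusted p under 0.05), against 11.7% of all probe sets called higher. Another 1 fell, against 8.11% called lower. The homeotic gene Dfd, which patterns the head, had 33.3, 18.1 and 2 on GSC arrays and 150.5, 215.7 and 222.5 on Kc arrays (adjusted p = 0.000654). The Kc signals of Dfd were above the highest mouse or yeast control, and its GSC signals were no higher than those controls, so no fold is given. Every signal of pb, Scr, Antp, en and inv lay below the highest of these controls, 121.3, so their differences could not be judged. Some exceeded the controls of the same array, which reached 26.6 on GSC 2 and 38.5 on GSC 3. These were en (78.5 and 45.1) and the brighter Antp probe set (49.8 and 64.6) on both arrays, and Scr (30) on GSC 2.

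The genes whose pattern over the 6 arrays was most like that of Psc were sought by the root mean square distance between log2 values centred on each gene's own mean. The 5 nearest were zen at 0.119, Pex5 at 0.133, mtrm at 0.140, CG33181 at 0.147 and CG12493 at 0.153. zen is a homeobox gene of the early embryo, Pex5 encodes the receptor for import into peroxisomes, and mtrm encodes an inhibitor of Polo kinase in oocyte meiosis. zen had 656.4, 573.2 and 645.6 on GSC arrays and 60.1, 32.3 and 44.4 on Kc arrays. The Kc signals of these 5 genes lay within the range of the mouse and yeast controls, so their distances and order are loose. With 3 arrays in each group this likeness reflects mainly the size of the difference between groups.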

How the data were processed

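RNA of 3 GSC and 3 Kc samples was hybridised to 1-colour Drosophila arrays. The authors deposited 1 linear intensity per probe set and array, made with MAS5 per the submitters' processing notes, with no version, setting or detection call stated. Trimmed means (2% at each end) were 500.1 on all arrays, so the values were not normalized again. Leaving out 44 control probe sets, 13966 were tested, of which 12443 had 1 gene symbol, 327 several and 1196 none. Gene identifiers matched 12394 to the RefSeq table of Release 6 plus ISO1 MT. Groups were compared with lmFit and eBayes (trend, robust) of limma 3.58.1 in R 4.3.3, checked on simulated arrays. Where a gene had several probe sets, the brightest by mean log2 value stood for it. Members, lists and the naming rule were chosen with earlier results of these data known. The rule named all members, fixed paralogs and partners, the 4 largest called other genes in each direction, the 3 largest called targets, the 5 genes nearest to Psc and the 2 brightest of each marker list. Alternatives covered pseudocount, scaling, filter, variance prior, fold minimum, replicate block and leaving out each array. The number of arrays limits the precision.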

Additional observations from a re-analysis of the deposited data

How the results depend on the processing

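Psc, E(z) and Asx were called higher under all 16 alternatives, with log2 folds of 2.37 to 3.37, 1.44 to 2.02 and 1.73 to 2.52. The count of members called higher was 5 with scaling to the hybridisation controls, without a fold minimum and with a fold minimum of 1.5, since Sce and esc then passed, and 3 or 4 otherwise. Of all probe sets, 20.1%, 20.1% and 18.1% were called higher under those settings, in that order. The sign of the uncalled Pc value turned with quantile normalization (-0.078), scaling to the median (-0.075) and without GSC 2 (-0.28), GSC 3 (-0.06) or Kc 1 (-0.39); the leave-one-out range was -0.39 to 0.38, and the cause was not tested. Of the other Polycomb group genes, 8 to 12 were called higher, and 3 lower without a fold minimum and 2 with one of 1.5. The difference in esc minus escl was 1.35 with the pseudocount at the median, which shrinks differences by construction. Over all probe sets, 1633 were higher and 1132 lower as reported, 956 and 735 at the median pseudocount, 2811 and 686 with hybridisation control scaling, 2811 and 2002 without a fold minimum, and 2528 and 1739 with one of 1.5. With the replicate number as a block, 1619 were higher and 1120 lower, and 3 members were called higher, so no call of a member changed. No pairing by number was detected: same-numbered arrays had deviations that correlated at -0.0295, 0.0364 and -0.00703. Differently numbered arrays gave -0.0566 to 0.0548. With 3 arrays in each group this cannot exclude a pairing. Signals near those of the mouse and yeast controls carry no usable difference.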
